A study of Mus musculus with 10 samples.

Results

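In 3 of 10 tumour libraries, transcripts of the mitochondrial genome made up more than 25% of the summed FPKM (fragments per kilobase of transcript and per 1000000 mapped fragments). These were Free-MK1775+NLG919 replicate 2 at 47.3%, Lipo-MK1775 replicate 1 at 64.1% and Lipo-MK1775 replicate 2 at 56.0%. The other 7 libraries lay between 2.88% and 4.82%, so the value just inside the threshold was 47.3% and the value just outside was 4.82%. The high share libraries were chosen by this measured share, and everything that follows about high against low share libraries is therefore a description without a test. Values of the 3 high share libraries are always given in the order in which they are named here.

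The libraries were made from tumours grown under the skin from 4T1 cells, a line of mouse mammary carcinoma, and taken on day 14 in 5 groups of 2. The groups were a negative control (PBS in the design text), Free-MK1775, Free-MK1775+NLG919, Lipo-MK1775 and Lipo-MK1775+NLG. MK1775 inhibits the kinase WEE1, NLG919 acts on the IDO1 pathway, and the make-up of the Free and Lipo forms is not given in the sources used here. The low share side thus holds both control, both Free-MK1775 and both Lipo-MK1775+NLG libraries and Free-MK1775+NLG919 replicate 1. Both Lipo-MK1775 libraries are on the high side, so that treatment and a high share cannot be told apart for them, whereas the Free-MK1775+NLG919 group has a library on each side. Each library is bulk RNA of a whole tumour with its host cells, and fewer cells of a type and less RNA per cell cannot be told apart. The labels do not say whether the libraries of a group came from separate mice.

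The mitochondrial genome codes for a small set of respiratory chain subunits and for the ribosomal and transfer RNAs that translate them, all cut from long precursor transcripts. Every other mitochondrial protein, including the remaining respiratory chain subunits, the mitochondrial ribosomal proteins and the factors that copy, transcribe and process mitochondrial DNA and RNA, is read from nuclear genes and imported. The nuclear genome also carries inserted copies of mitochondrial sequence, which are annotated as pseudogenes and can take up reads of mitochondrial origin because the sequences are nearly the same.

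The high share libraries were also the shallowest in nuclear reads. The smallest FPKM step, scaled by transcript length, gave a relative nuclear depth of 2.13, 1 and 1.59 against 2.94 to 4.67 in the low share libraries. Summed FPKM was 589458, 566878 and 607192 against 328254 to 378545 in the low share libraries. Genes at 1 TPM or more numbered 12710.0, 12643 and 13108 against 13829 to 14680.0. The part of depth in the results below was not tested.

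Mitochondrial messenger RNAs made up most of the mitochondrial FPKM on both sides. Their part of it was 88.8%, 61.2% and 91.6% against 74.6% to 77.7% in the low share libraries, and in Lipo-MK1775 replicate 1 a further 34.2% lay in assembled mitochondrial transcripts without a symbol. The mitochondrial ribosomal RNAs held a smaller part of it in all 3 (2.08%, 2.78% and 2.34% against 3.41% to 4.53%), as did the transfer RNAs (1.90%, 1.87% and 1.64% against 3.29% to 5.07%). mt-Co1, a catalytic subunit of cytochrome oxidase, had 82868, 133642 and 103126 FPKM against 3101 to 5370 in the low share libraries. mt-Nd1, a complex I subunit, had 46045, 29582 and 48413 FPKM against 1180 to 2299. Both lay far above every low share library, as did the ribosomal RNAs mt-Rnr1 (3299, 5426 and 4233 FPKM against 158 to 351) and mt-Rnr2 (2518, 4695 and 3708 FPKM against 163 to 352). Single mitochondrial genes were uneven between the 3: mt-Nd2 had 34610, 242 and 32992 FPKM and mt-Atp6 65.6, 7485 and 6883 FPKM. Reads of several of these genes can be split with nuclear copies and with assembled transcripts, so their separate levels are uncertain.

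**Figure D1:**
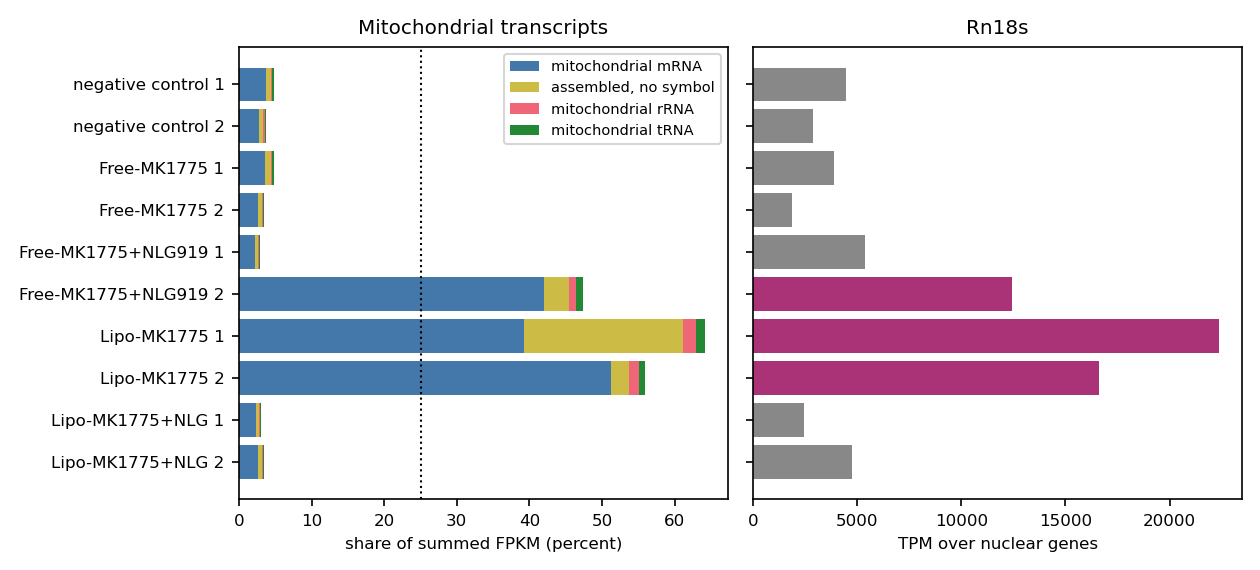
Left, share of summed FPKM (percent) in mitochondrial transcripts for each of the 10 libraries, divided into mRNA, assembled transcripts without a symbol, rRNA and tRNA, with the threshold of 25% as a dotted line. Right, Rn18s in TPM over nuclear genes, with the 3 high share libraries in purple and the 7 low share libraries in grey; the 3 high share libraries stand at 12448 to 22359 TPM and all others at or below 5389.

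For the nuclear transcripts, FPKM were summed per gene symbol, mitochondrial rows were removed and each library was rescaled to a common sum of 1000000, called TPM here. A gene was kept at 1 TPM or more in at least 2 libraries, which left 15901 of 52287. Differences are between mean log2(TPM + 1) of the high and of the low share libraries, and this scale understates the change of low genes. A gene is called higher or lower when its values in all 3 high share libraries lie beyond all 7 low share values and the difference is at least 1. By this rule 292 genes were higher (1.84%) and 3594 were lower (22.6%). Without the size limit, 528 genes were higher with no overlap (3.32%) and 6675 were lower (42%). Many reads lie in assembled transcripts without a symbol, and once these were added to the symbol of the same locus, 301 of 15752 genes were higher (1.91%) and 3904 lower (24.8%), or 575 (3.65%) and 7971 (50.6%) without the size limit. Some genes passed the filter through one side only, with fewer than 2 libraries of the other side at 1 TPM, and had to differ. They were 90 of the genes called higher and 556 of those called lower, and among the 12454 genes that passed on both sides 202 were higher (1.62%) and 3038 lower (24.4%). The median difference over all genes kept was -0.67, with 13232 below 0, so that the typical nuclear gene was lower against a minority of abundant transcripts that took a larger part of the common sum. With median-of-ratios scaling, which sets the typical gene to no difference, 980 genes were higher and 652 lower and the median of all genes was -0.06. The directions below are therefore those of the common sum, and lists are read against the median of all genes.

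The largest differences belonged to nuclear copies of mitochondrial sequence. Of the genes kept, 13 had a main transcript with at least 100 bases at 90% identity or more to a mitochondrial transcript, and 11 of these were called higher and 0 lower, with a median difference of 4.65. Together they held 1.19%, 4.52% and 3.28% of nuclear TPM against 0.0238% to 0.0624% in the low share libraries. Gm10925 (chr1:24653055-24653814, GRCm39), an unprocessed pseudogene identical to mt-Atp6 over 678 bases, had 6218, 17072 and 14264 TPM against 92.2 to 255 TPM, a difference of 6.36. All 3 high share libraries stood far above the highest low share library. The 4 neighbours Gm28437, Gm28439, Gm28661 and Gm29216 lie in the same insertion on chromosome 1 and match mt-Co3, mt-Nd4, mt-Co2 and mt-Co1 at 99.8% identity or more. Their differences were 6.25, 6.24, 6.04 and 5.66. Which of the reads counted there came from the nuclear copies was not tested. More diverged copies were counted too: Gm13339 (chr2:22480036-22480545, GRCm39; 96.7% identity to mt-Nd2 over 510 bases) had 165, 409 and 291 TPM against 3.03 to 10.1, and Gm11410 (chr4:79922226-79923368, GRCm39; 92.9% identity to mt-Cytb over 1142 bases) had 3.3, 19 and 11.5 TPM against 0 to 0.105. Gm13339 did not overlap between the sides, whereas Gm11410 was kept through the high share libraries only and so had to differ, as was 1 other of the 13. Gm13340 and Gm28438 were not called at 1.38 and 0.27, although Gm13340 reached 5.63 once assembled transcripts of its locus were added.

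To show how near these copies are, a 100-base stretch of each of 3 copies is set beside its mitochondrial counterpart, read 5′ to 3′ from the GENCODE M21 transcript sequences, with differing bases in capitals. The Gm10925 stretch is identical to bases 1 to 100 of mt-Atp6 and is printed once, the Gm13339 stretch (bases 231 to 330) differs from mt-Nd2 (bases 759 to 858) at 6 positions, and the Gm11410 stretch differs from mt-Cytb (bases 297 to 396 of both) at 10 positions.
Gm10925 and mt-Atp6: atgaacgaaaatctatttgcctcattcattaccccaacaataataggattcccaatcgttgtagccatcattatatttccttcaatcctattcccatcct
Gm13339: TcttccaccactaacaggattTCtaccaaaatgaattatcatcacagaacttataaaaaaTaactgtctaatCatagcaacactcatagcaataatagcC
mt-Nd2: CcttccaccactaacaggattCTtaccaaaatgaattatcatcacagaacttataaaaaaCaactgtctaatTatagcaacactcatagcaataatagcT
Gm11410: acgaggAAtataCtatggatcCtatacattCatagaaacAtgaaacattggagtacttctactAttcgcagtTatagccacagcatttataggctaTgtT
mt-Cytb: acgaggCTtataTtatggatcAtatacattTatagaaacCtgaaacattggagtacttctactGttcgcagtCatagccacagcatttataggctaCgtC

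Transcript length ordered the protein-coding genes in all 3 high share libraries. Over all genes kept, the shortest classes were out of this order in Lipo-MK1775 replicate 1 (-0.31 under 500 bases and -0.23 at 500 to under 1000). Among protein-coding genes, the median difference was 0.24 for main transcripts under 500 bases (n = 114), -0.04 at 500 to under 1000 (n = 881), -0.46 at 1000 to under 2000 (n = 2797), -0.78 at 2000 to under 4000 (n = 5160), -1.01 at 4000 to under 8000 (n = 3447) and -1.10 at 8000 or more (n = 557). Calls followed this order only in part. In the shortest class 11 genes were higher and 4 lower, and in the longest 6 were higher and 234 lower. From the shortest to the longest class, 9.65%, 3.75%, 1.04%, 0.33%, 0.15% and 1.08% were higher. In the same order, 3.51%, 2.27%, 8.69%, 26.7%, 42.6% and 42.0% were lower. For the shortest class, the 3 libraries stood at 0.55, 0.04 and 0.41, and for the longest class at -1.12, -1.05 and -1.08. The median of genes with a main transcript under 1000 bases minus that of genes over 4000 bases was 0.95 (SD over the 3 libraries 0.20), with 1.09, 0.68 and 0.90 in the single libraries against -0.26 to 0.18 in the low share libraries. All 3 lay above every low share library, and Lipo-MK1775 replicate 1, which has the highest mitochondrial share, had the smallest value of the 3.

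**Figure D2:**
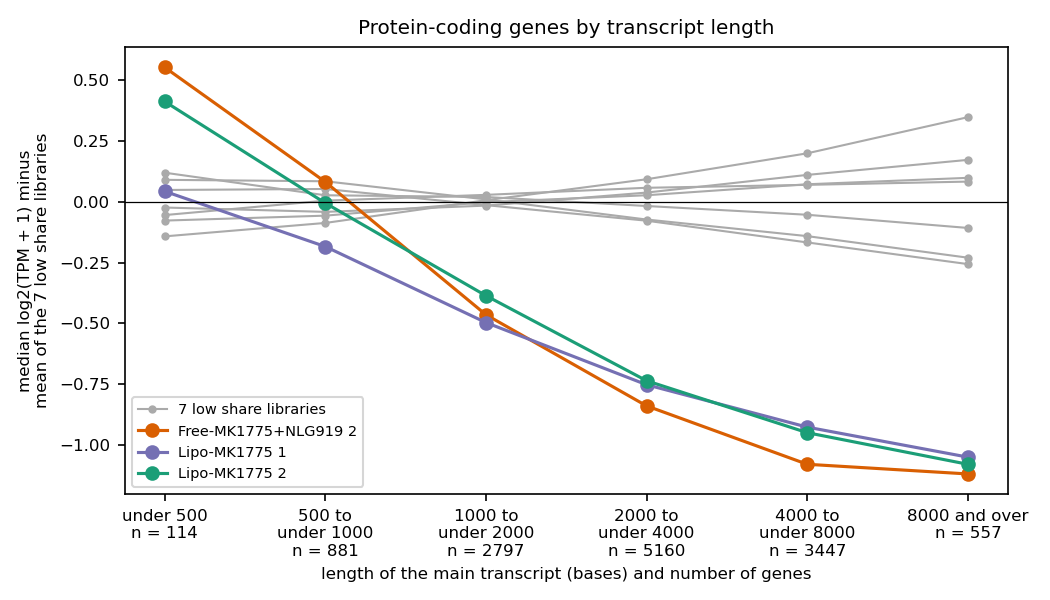
Median log2(TPM + 1) minus the mean of the 7 low share libraries (y axis) over protein-coding genes in 6 classes of main transcript length in bases (x axis, with the number of genes); coloured lines are the 3 high share libraries and grey lines the 7 low share libraries. The coloured lines fall from 0.04 to 0.55 in the shortest class to between -1.12 and -1.05 in the longest.

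Short ribosomal protein and respiratory chain genes accounted for part of the shortest class. Without them its median was 0.04 (n = 82) and that of 500 to under 1000 bases -0.09 (n = 759), while the classes from 1000 bases upward ran from -0.46 to -1.10. Among genes at 100 TPM or more, the order ran from 0.71 under 500 bases (n = 37) to -1.06 at 4000 to under 8000 bases (n = 90). Among genes under 2 TPM it ran only from -0.26 (n = 35) to -0.62 (n = 78), where the added 1 holds differences near 0. GC content moved with the difference less: over 5 equal classes from low to high GC (outer limits 44.5% and 56.2%, n = 2591 each) the medians were -0.86, -0.83, -0.74, -0.67 and -0.58. Within the highest GC class, medians still went from 0.12 under 500 bases (n = 36) to -1.09 at 8000 or more (n = 46). Within the lowest GC class they went from -0.04 (n = 17) to -1.09 (n = 208). Genes with 1 exon had a median of -0.50 (n = 367) and genes with over 20 exons one of -1.09 (n = 1499). Between isoforms of the same gene there was little net shift, although single genes differed. Over 8390 genes with several transcripts, the mean transcript length was shorter in the high share libraries for 4342 and longer for 4034. Without overlap between the sides it was shorter for 846 and longer for 609.

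Transcript classes differed too, not always in the order of length. Processed pseudogenes, which are short and copied from mature mRNAs, had a median difference of 0.08. Of 1055, 101 were higher (9.57%, against 1.84% of all genes) and 37 were lower (3.51%, against 22.6%). Of all genes kept under 500 bases, such pseudogenes included, 10.1% were higher and 4.15% lower. Of those of 500 to under 1000 bases, 4.78% were higher and 4.78% lower. The part of length in the processed pseudogenes was not tested. Among the processed pseudogenes, the 146 copies of ribosomal protein genes had a median of 0.67 (29 higher, 0 lower) and the other 909 a median of -0.02. Their reads cannot be told apart from those of the parent genes where the sequences match. Protein-coding genes had a median of -0.74 with 101 higher and 3346 lower of 12956. Long intergenic noncoding RNAs (-0.44, n = 350), antisense RNAs (-0.49, n = 397), snoRNAs (-0.59, n = 102) and genes annotated as miRNAs (-0.63, n = 118) lay between these, although snoRNAs and miRNAs are shorter than most mRNAs.

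The ribosomal RNA gene Rn18s and the small RNA gene Rmrp were higher. Rn18s (chr17:40157244-40159092, GRCm39), the 18S ribosomal RNA, had 12448, 22359 and 16585 TPM against 1880 to 5389 TPM (median 3864). Rmrp (chr4:43492788-43493063, GRCm39), the RNA of the RNase MRP complex that processes ribosomal RNA and is also found in mitochondria, had 37.7, 57.7 and 34.7 TPM against 1.04 to 8.7 (median 4.13), a mean of 43.3 ± 12.5 (SD, n = 3) against 4.63 ± 2.75 (SD, n = 7). Rpph1, the RNA of RNase P, had 3.99, 7.45 and 6.29 TPM against 0 to 0.89 (median 0.0294). Rn18s and Rmrp did not overlap between the sides, whereas Rpph1 was kept through the high share libraries only and so had to differ. Of the 23 RNA polymerase III and small housekeeping RNAs listed only 6 were kept, 3 of them through the high share libraries only and 2 on both sides, so the list gives no count to read. RNAs of this size are kept unevenly by RNA libraries, and the labels state no selection or size step.

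The cytosolic ribosomal proteins, which build the ribosome together with ribosomal RNA, were the protein-coding list that stood highest. Of the 46 genes, 44 were above 0, 7 were called higher (15.2%, against 1.84% of all genes) and 0 lower. Their median difference was 0.63, and it stayed above 0 with each of the 5 scalings tried (lowest 0.15 with FPKM as deposited). Summed, they took 193387, 179725 and 183852 TPM against 102898 to 118493. Rpl38 (chr11:114559350-114563157, GRCm39; main transcript 371 bases), a protein of the large subunit, had 9417, 9159.8 and 8323 TPM against 1544 to 2382 (median 1827), a difference of 2.22. All 3 high share values were well above the highest low share value. Others called higher included Rpl37 (1.91), Rpl35 (1.86), Rps24 (1.16), Rps19 (1.04) and Rps18 (1.01). Rpl37 had 5208, 4812 and 4328 TPM against 262 to 1774 (median 1694), and its lowest low share value lies far under the others. At the other end were Rps4x at -0.15 and Rpl10 at -0.04. Many of these genes have processed copies, so reads may be shared among them.

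Host genes of snoRNAs, which carry small nucleolar RNAs in their introns, followed with a median of 0.44, although it was -0.03 with FPKM as deposited. Of 16, 4 were higher (25%, against 1.84% of all genes) and 0 lower. Snhg8 had 329, 352 and 314 TPM against 151 to 173 (median 162) and Snhg20 199, 95 and 77.5 TPM against 33.6 to 54 (median 39.2). Both were above all low share libraries. Replication-dependent histone genes had a median of 0.15 (-0.12 with FPKM as deposited), with H2ac8 the 1 of 31 called higher.

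Nuclear genes of the respiratory chain and of mitochondrial ribosomes stood above the median of all genes, with few calls. Nuclear-encoded respiratory chain subunits had a median of -0.03 with 34 of 73 above 0. The sign of the median depended on the scaling (0.73 with median of ratios, -0.50 with FPKM as deposited). Of the 73, 3 were higher (4.11%, against 1.84% of all genes) and 3 were lower (4.11%, against 22.6%). Relative to the median of all genes the list stood 0.64 higher, with 66 of 73 members above it, and it stood above it in all 20 alternatives tried (lowest 0.19). The main transcripts of the respiratory chain list had a median length of 763 bases. Protein-coding genes of 500 to under 1000 bases stood much the same, with a median of -0.04, which is 0.63 above that of all genes. Of these genes, 3.75% were higher and 2.27% lower. The part of length in the respiratory chain list was not tested. Ndufa3, a small complex I subunit with a main transcript of 515 bases, had 523, 378 and 417 TPM against 123 to 249 (median 132), and Ndufb7 (1.13) and Ndufa5 (1.04) were the other subunits called higher. Sdha, the flavoprotein of complex II with a main transcript of 2900 bases, had 57.9, 70.9 and 74.3 TPM against 145 to 179.7 (median 159). Ndufs1 (-1.04) and Atp5a1 (-1.0), with main transcripts of 2622 and 2471 bases, were the other subunits called lower. The high and low share libraries did not overlap in any of these 6 genes. Atp5a1 was no longer called once assembled transcripts were added (-0.95). Mitochondrial ribosomal proteins had a median of -0.21 (0.55 with median of ratios), 0.46 above that of all genes with 34 of 38 members above it and a lowest value of 0.01 over the alternatives. The 1 called of 38, Mrpl20 at 2.73, was at 0.32 with assembled transcripts added.

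The nuclear factors that copy, transcribe and process mitochondrial DNA and RNA were close to all genes. Their median was -0.66 (0.03 with median of ratios), with 0 higher and 7 lower of 30 (23.3%, against 22.6% of all genes). Polg, the mitochondrial DNA polymerase, had 7.21, 8.04 and 7.4 TPM against 18.2 to 25 (median 21.1). Lrpprc, which stabilises mitochondrial mRNAs, had 14.5, 15.6 and 15.7 TPM against 30.4 to 41.1 (median 36.6). Both were lower in all 3 high share libraries than in any other. Tfam, which packages mitochondrial DNA and starts its transcription, had 12.5, 17.3 and 17.4 TPM against 26.8 to 35.1 (median 30.9), and at -0.95 it missed the size limit without overlap. Polrmt, the mitochondrial RNA polymerase, overlapped between the sides (24.2, 14.2 and 9.44 TPM against 11.2 to 24.4 (median 19.7)). Slirp, the partner of Lrpprc, was at 0.02. In the same libraries the mitochondrial share itself was 16.4 to 22.3 times that of the lowest library, Free-MK1775+NLG919 replicate 1.

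Regulators of mitochondrial biogenesis had 0 higher and 5 lower of 11 (45.5%, against 22.6% of all genes) and a median of -1.0 (-0.31 with median of ratios). The 5 were Pprc1 (-1.52), Sirt1 (-1.46), Nrf1 (-1.28), Yy1 (-1.25) and Ppargc1b (-1.21), the last kept through the low share libraries only. Nrf1, a transcription factor of nuclear respiratory genes, had 6.94, 6.89 and 6.37 TPM against 13 to 30.8 (median 15.5). The sides did not overlap, although the highest of the low share values was far from the median. The main transcripts of the biogenesis list had a median length of 3923 bases. Protein-coding genes of 2000 to under 4000 bases had a median difference of -0.78 (26.7% lower). Those of 4000 to under 8000 bases had one of -1.01 (42.6% lower). The part of length in this list was not tested. Genes of mitophagy and apoptosis had a median of -0.52 (0.21 with median of ratios) with 4 lower of 23 (17.4%), a share under the 22.6% of all genes. Among these were the death genes Bid (-1.39), Bcl2l11 (-1.33) and Apaf1 (-1.20). Pink1, the kinase that marks damaged mitochondria, was at -0.23. Oxidative genes of heart and brown fat had a median of -0.94 with 2 lower of 12 (16.7%), again under the share of all genes. Hadhb of fatty acid oxidation was one of these (33.9, 39.9 and 35.7 TPM against 75.8 to 85.3 (median 81.2), a difference of -1.14). Cox8b and Fabp3, which are abundant in muscle and brown fat, had 0, 0 and 4.4 TPM and 0, 0.851 and 0 TPM, at or under the low share medians except Cox8b in Lipo-MK1775 replicate 2.

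**Figure D3:**
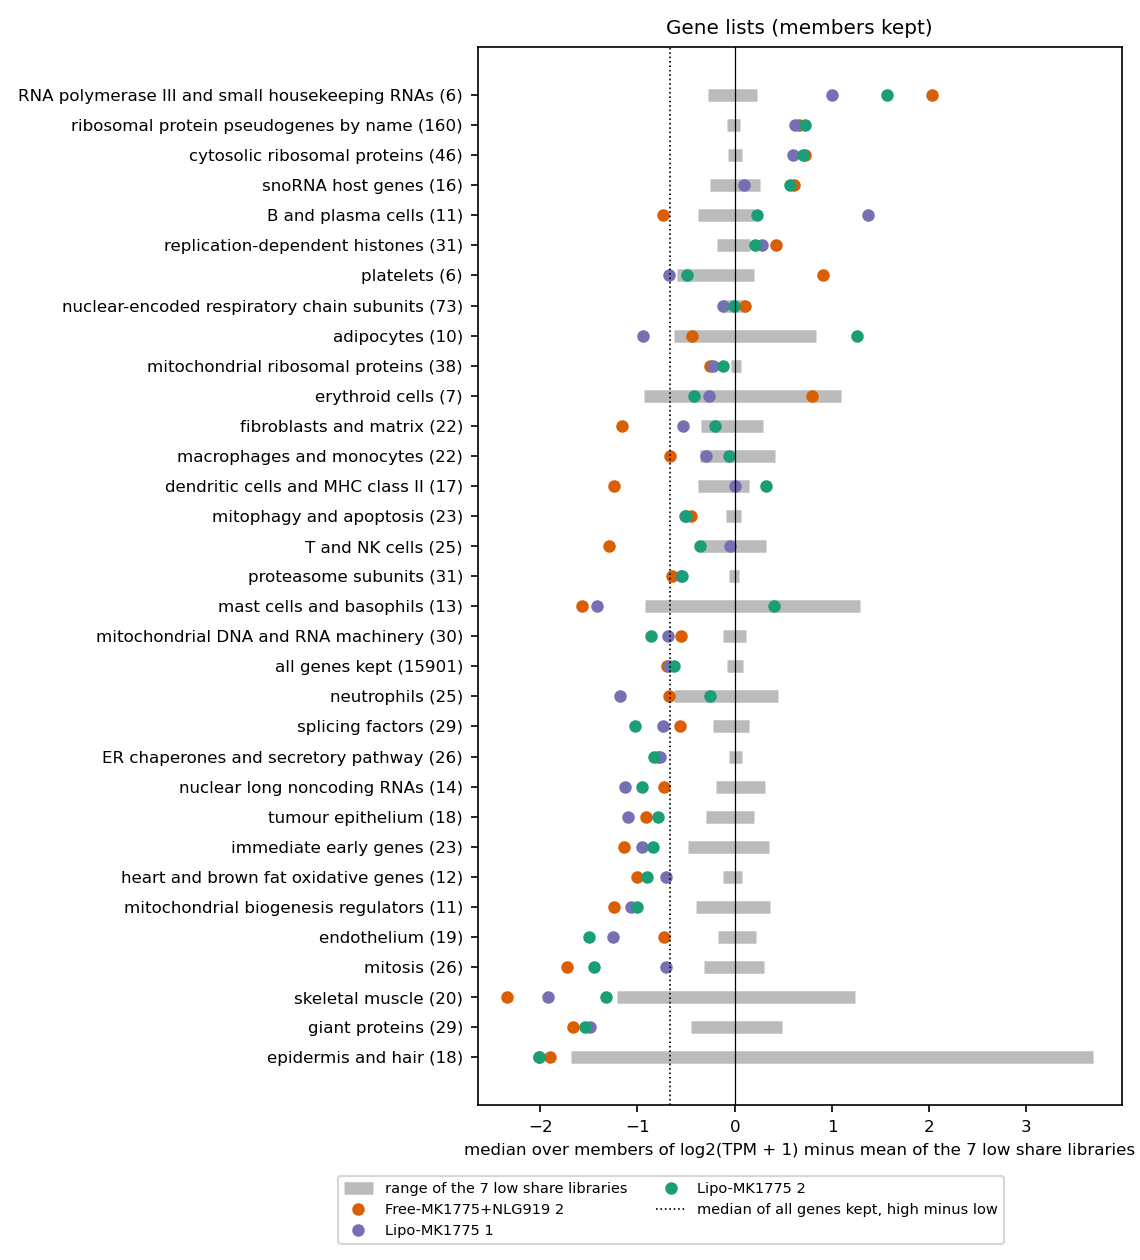
Median over the kept members of each gene list (number in brackets) of log2(TPM + 1) minus the mean of the 7 low share libraries; coloured points are the 3 high share libraries, grey bars span the 7 low share libraries and the dotted line is the median of all genes kept (-0.67). The cytosolic ribosomal proteins stand at 0.60 to 0.72 and the giant proteins lie left of the dotted line in all 3 libraries, whereas the dendritic cell, T cell and B cell lists are spread between the 3.

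Long transcripts of several unrelated functions were lower together. The giant protein list had a median of -1.78, with 0 higher and 16 lower of 29 (55.2%, against 22.6% of all genes). Of the 20 that passed on both sides 10 were lower, and with assembled transcripts added 26 of 29 were lower. The main transcripts of the giant protein list had a median length of 14585 bases. All protein-coding genes of 8000 bases or more had a median difference of -1.10 with 42.0% lower. The part of length in the giant protein list was not tested. Summed, the giant protein genes took 196, 203 and 201 TPM against 494 to 906. Plec, the cytoskeletal linker plectin, had 15.3, 8.31 and 12.5 TPM against 48.4 to 94.7 (median 74.8). Kmt2a, a histone methyltransferase, had 6.88, 5.55 and 4.72 TPM against 15.4 to 42.2 (median 27.8). Both were lower in all 3 high share libraries than in any other, and with assembled transcripts added their differences were -2.57 and -1.84. Ubr4 at -3.03 moved to -1.45 in that setting. Mitosis genes had a median of -1.31 with 0 higher and 16 lower of 26 (61.5%, against 22.6% of all genes). Of the 24 that passed on both sides 14 were lower. Aspm, needed at the spindle pole, had 2.17, 2.94 and 2.32 TPM against 9.52 to 20.8 (median 14.8). Kif11, the spindle motor, had 5.9, 13.3 and 9.77 TPM against 24.2 to 41.7 (median 33.8). Neither overlapped. Birc5 (966 bases, 0.06) and Ube2c (967 bases, 0.21) were the only 2 of 26 members above 0. The main transcripts of the mitosis list had a median length of 3671 bases. All protein-coding genes of 2000 to under 4000 bases had a median difference of -0.78 with 26.7% lower. Those of 4000 to under 8000 bases had one of -1.01 with 42.6% lower. The part of length in the mitosis list was not tested. Mki67, a proliferation marker, was at -3.40 from its symbol and at -1.46 with assembled transcripts added.

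Neat1 and Malat1, noncoding RNAs retained in the nucleus, were lower. The list of nuclear long noncoding RNAs had 0 higher and 5 lower of 14 (35.7%, against 22.6% of all genes). Its median was -0.85, which is -0.19 relative to the median of all genes, but with FPKM as deposited it lay 0.33 above that median. Neat1 (chr19:5892335-5895506, GRCm39), the scaffold of paraspeckles, had 17.9, 15.2 and 47.7 TPM against 118 to 376 (median 172), a mean of 26.9 ± 18.1 (SD, n = 3) against 203 ± 91.4 (SD, n = 7) and a difference of -2.94. Malat1, found in nuclear speckles, had 16.9, 11.8 and 21.6 TPM against 31.6 to 54.9 (median 42.6). Every high share library was lower than every low share library for both genes. Gas5, a short spliced noncoding RNA, was at 0.28. Splicing factor genes had a median of -0.71 (0.02 with median of ratios), with 0 higher and 11 lower of 29 (37.9%). Ddx5, an RNA helicase, had 199, 121 and 85.6 TPM against 498 to 697 (median 607), and Srsf2, a factor of splice site choice, 142, 152 and 149 TPM against 385 to 431 (median 412). Both sides stood apart in these genes too.

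Immediate early and secretory pathway genes stood not far below all genes. Immediate early genes had a median of -0.93 (-0.27 relative to all genes) with 0 higher and 7 lower of 23 (30.4%, against 22.6% of all genes). With median of ratios their median was -0.20. Jun had 62.8, 62.7 and 69.5 TPM against 113 to 295 (median 183), and Fos 19, 14.4 and 26.1 TPM against 33.7 to 74 (median 49.8), without overlap. Genes of chaperones and translocation in the endoplasmic reticulum had a median of -0.84 (-0.08 with median of ratios) with 0 higher and 9 lower of 26 (34.6%). Dnajc3, a cochaperone, had 27.1, 37.8 and 35 TPM against 97.3 to 118 (median 109), and Canx, the lectin chaperone calnexin, 186, 307 and 250.4 TPM against 497 to 555 (median 532). The sides lay apart in both. The short translocon subunits Sec61b (564 bases, 0.44) and Sec61g (754 bases, 0.20) were above 0 beside Sec61a1 (3172 bases) at -1.33. Proteasome subunits had a median of -0.59 (0.17 with median of ratios), near that of all genes, with 2 lower of 31 (6.45%).

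Tumour cell markers were present on both sides. Krt18, a keratin of simple epithelium, had 902, 794 and 1213 TPM against 844 to 1260.1 (median 989), and Krt8, its partner, 349.9, 368 and 552 TPM against 588 to 866 (median 737). Krt18 overlapped between the sides and Krt8 did not, without reaching the size limit (-0.80). The tumour epithelium list had a median of -0.88 with 0 higher and 4 lower of 18 (22.2%), a share like the 22.6% of all genes. The 4 were Cldn4, Elf3, Prss8 and Cldn3, with Cldn4 kept through the low share libraries only. Epcam was low throughout (0.584, 0.435 and 0 TPM against 0 to 14.2 (median 1.53)), and Esrp1 and Ovol1 were listed at 0 in all 3 high share libraries. Neutrophil genes had a median of -0.68 (0.06 with median of ratios) with 5 lower of 25 (20%), also close to all genes, and the abundant S100a8 (0.12) and S100a9 (0.13) overlapped between the sides.

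Macrophage genes had a median of -0.44 (0.32 with median of ratios). Of 22, 1 was higher (4.55%, against 1.84% of all genes) and 2 were lower (9.09%, against 22.6%). Apoe, an apolipoprotein made by macrophages, was the gene called higher, with 1519, 1807 and 3972 TPM against 655 to 1043 (median 740.3). It was above all low share libraries in all 3 and highest in Lipo-MK1775 replicate 2. Ccr2, the chemokine receptor of recruited monocytes, had 3.94, 3.94 and 8.25 TPM against 17.8 to 42.4 (median 25.9), and Mertk, a receptor for dead cells, 5.27, 4.34 and 4.27 TPM against 10 to 19.6 (median 13.4). Both were lower without overlap. Cd68 overlapped at -0.03, and Cd163, a scavenger receptor, had 5.62, 24.8 and 118 TPM against 3.03 to 20.4 (median 16.2), above the low share range in both Lipo-MK1775 libraries only.

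Endothelial genes were the cell type list with the most calls, 11 lower and 0 higher of 19 (57.9%, against 22.6% of all genes). Of the 16 that passed on both sides 9 were lower. The list median was -1.20, below 0 under all 5 scalings. Summed, the endothelial genes took 248, 184 and 164 TPM against 381 to 525. Cdh5, the cadherin of endothelial junctions, had 15.9, 9.18 and 4.79 TPM against 24.5 to 54 (median 35.4), and Eng, a coreceptor of TGF-beta, 56.8, 53.9 and 60.6 TPM against 113 to 152 (median 122). Both were lower in all 3. The main transcripts of the list had a median length of 3699 bases. All protein-coding genes of 2000 to under 4000 bases had a median difference of -0.78 with 26.7% lower. Those of 4000 to under 8000 bases had one of -1.01 with 42.6% lower. The shorter Egfl7 (1826 bases) was at -0.23, and the part of length was not tested. Fibroblast and matrix genes had a median of -0.40 (0.35 with median of ratios). Of 22, 3 were lower (13.6%, against 22.6% of all genes), Fn1, Pdgfra and Fbln2. Fn1, fibronectin, had 324, 253 and 405 TPM against 1069 to 1514 (median 1378), whereas Col1a1 (44.2, 109.5 and 154 TPM against 62.6 to 151 (median 121)) and Dcn (-0.06) overlapped.

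Skeletal muscle and epidermis genes, which mark tissue around the tumour, varied widely already among the low share libraries. Muscle genes summed to 208, 190.3 and 262 TPM against 134 to 1013, with a median of -1.70. Of 20, 7 were lower (35%, against 22.6% of all genes), and 5 of these were kept through the low share libraries only. Acta1, skeletal actin, had 0, 11.3 and 38.8 TPM against 24.3 to 333 (median 117) and overlapped, and was listed at 0 in Free-MK1775+NLG919 replicate 2. Of the 18 epidermis genes 16 were kept through the low share libraries only. The list summed to 6.89, 5.36 and 11.2 TPM against 10.03 to 2425, and Krt14 had 0, 0 and 1.62 TPM against 0 to 646 (median 1.94). By these sums, the high share libraries lay within the muscle range and under or close to the lowest epidermis sum of the low share side. By the list median, muscle genes stood at -2.34, -1.92 and -1.32 against -1.21 to 1.24, below every low share library. Of the 20 muscle genes 10 were kept through the low share libraries only.

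Antigen presentation and lymphocyte genes split the 3 high share libraries. Cd74, the invariant chain of MHC class II, had 299.7, 2002 and 1843 TPM against 1606 to 4422 (median 1834), and H2-Aa, a class II chain, 95.9, 947 and 773 TPM against 423 to 1396 (median 527). Free-MK1775+NLG919 replicate 2 was under all other libraries for both, while both Lipo-MK1775 libraries lay within the low share range. The class II and dendritic cell list accordingly had medians of -1.24, 0.01 and 0.32 in the 3 libraries and 0 calls of 17 (overall -0.46, but 0.16 with median of ratios). T and NK cell genes had medians of -1.29, -0.05 and -0.36 and summed to 42.5, 134 and 127 TPM against 102 to 187. Among B and plasma cell genes, Jchain of secreted antibodies had 0, 48.3 and 16.6 TPM against 2.5 to 9.75 (median 7.74). It was listed at 0 in the first library and was above all low share libraries in both Lipo-MK1775 libraries. The B and plasma cell list had medians of -0.74, 1.37 and 0.23 in the 3 libraries (overall 0.35), with 9 of 11 members above 0 and 0 called higher. Sdc1 was the 1 of 11 called lower (48.8, 50 and 49.6 TPM against 123 to 193 (median 143)), and it is also made by epithelium.

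**Figure D4:**
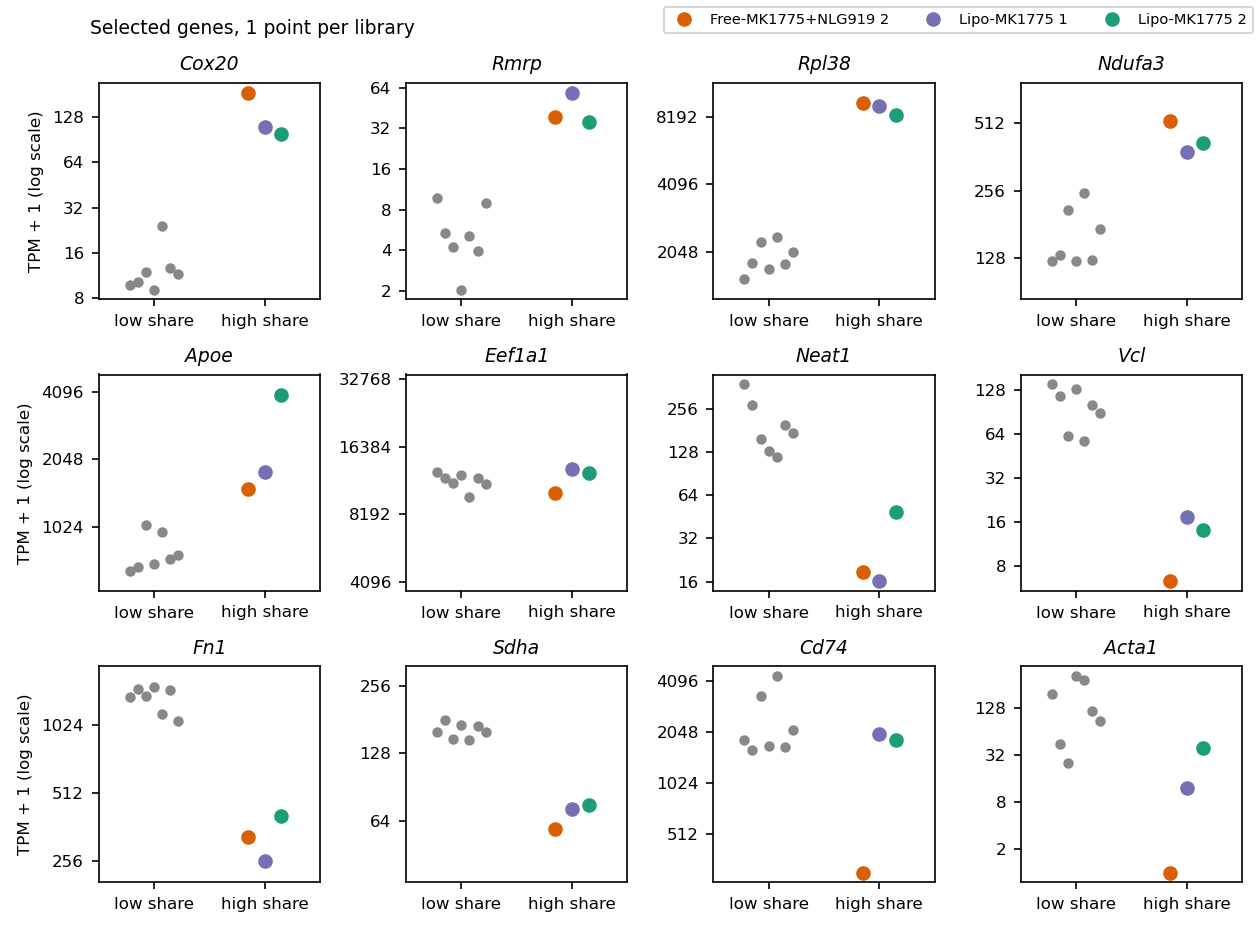
TPM + 1 (log scale) of 12 genes, with 1 grey point for each of the 7 low share libraries and 1 coloured point for each of the 3 high share libraries. Cox20, Rmrp, Rpl38, Ndufa3 and Apoe lie higher in all 3, Neat1, Vcl, Fn1 and Sdha lie lower in all 3, Eef1a1 overlaps, and Cd74 and Acta1 are lowest in Free-MK1775+NLG919 replicate 2.

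Among called genes with the same sign in the Free-MK1775+NLG919 pair and at least 5 TPM on a side, with copies, pseudogenes, predicted genes and short RNAs left aside, Cox20 had the largest difference. Cox20 (chr1:178146695-178150258, GRCm39), an assembly factor of cytochrome oxidase with a main transcript of 471 bases, had 186, 110.1 and 98.2 TPM against 8.09 to 23.1 (median 10.6), a mean of 131 ± 47.3 (SD, n = 3) against 11.8 ± 5.17 (SD, n = 7) and a difference of 3.39. It kept this with assembled transcripts added (3.21), and its main transcript had no match to mitochondrial transcripts by the criteria above. Hoxa7, a homeobox gene, had 36.7, 39.5 and 12.9 TPM against 1.17 to 9.1 (median 2.14). Apod, an apolipoprotein, had 27.8, 8.76 and 48.1 TPM against 0.896 to 6.98 (median 1.76). Neither overlapped between the sides. The U3 snoRNA gene Snord3a (2.80), Sap25 (2.84), Phactr1 (2.65, and 1.61 with assembled transcripts) and Mir99ahg (2.50) were higher too. Erc1, Rpph1 and Mir99ahg were kept through the high share libraries only. Of the 12 leading genes, 9 kept the call with assembled transcripts added, while Mrpl20 lost it and Car5b (2.94 to -0.50) and Erc1 (2.52 to -1.11) turned direction. That setting brought in Lars2 (2.12 to 2.82), a mitochondrial leucyl-tRNA synthetase.

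The leading lower genes depended more on how transcripts were summed, and all 12 had passed the filter through the low share libraries only. By symbol they included Ubr2 (-4.52), Mllt6, Lcp1, Edem3, Zdhhc21, Slc12a2, Ern1, Zfp608, Klhl22, Dhrs9 and Cldn12 (-3.94). With assembled transcripts added, all 12 leading genes moved by more than 1.5-fold, to between -2.48 and -0.89, and 11 of 12 were still called lower. The 12 leading genes of that setting shared 0 with this list and held the muscle genes Ankrd23, Myh4 and Atp2a1, and Derpc, Vcl, Neat1, Syne2, Sirpb1a, Fgfr2, Taf9, Plec and Ocln. Vcl, the adhesion protein vinculin, was much the same either way (-3.04 and -2.98), with 5.28, 16.2 and 13.1 TPM against 56.2 to 139 (median 100.3). All 3 high share libraries were below the low share range.

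Genes followed for the drugs and for common use gave few calls. Wee1, the target of MK1775, had 9.7, 14.7 and 14.3 TPM against 19.1 to 36.7 (median 27.5) and was lower at -1.09. Gpx4, the lipid peroxide reductase that blocks ferroptosis, was at -0.12 and overlapped. Slc7a11, the cystine transporter, was at 0.78 by symbol and -1.25 with assembled transcripts added, so its direction depended on the sum. Tfrc, the transferrin receptor, was at -1.04 with overlap. Of common reference genes, Eef1a1 (0.04) and Gapdh (-0.17) stood nearest to 0, Ftl1, the ferritin light chain, was at 0.32, Actb was at 0.59 (0.12 with assembled transcripts) and B2m at -0.47.

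The Free-MK1775+NLG919 group gives the contrast within a treatment, with 1 library a side and no replicate. Replicate 2 minus replicate 1 passed 1 log2 unit upward in 813 genes (5.11%) and downward in 4725 (29.7%). The mean of the Lipo-MK1775 libraries minus that of the 6 control, Free-MK1775 and Lipo-MK1775+NLG libraries passed it upward in 566 (3.56%) and downward in 4676 (29.4%). These differences share no library. Upward genes in common numbered 243, which is 42.9% of the Lipo-MK1775 genes and 29.9% of the others, and downward genes in common numbered 2390 (51.1% and 50.6%). A further 130 passed in opposite directions. Across the 15901 genes, which are not independent replicates, Pearson's r was 0.48 and Spearman's rho 0.46. Cox20 (2.95 and 3.28), Rmrp (2.91 and 3.19), Neat1 (-2.65 and -2.86) and Vcl (-3.19 and -2.72) had like differences within the treatment and in Lipo-MK1775. Cd74 (-3.88 and -0.04), H2-Aa (-3.85 and 0.66) and Jchain (-3.43 and 2.05) did not. Gbp3 (-6.71 and -0.32) and Cd274 (-4.99 and -0.55), both known to respond to interferon gamma, also differed in this way. They were named after their values were seen, from the genes with the largest such contrast. Gbp2b (-7.86 and -3.27), named in the same way, was lower in both. Replicate 1 had 4422 TPM of Cd74, the highest of all 10 libraries.

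**Figure D5:**
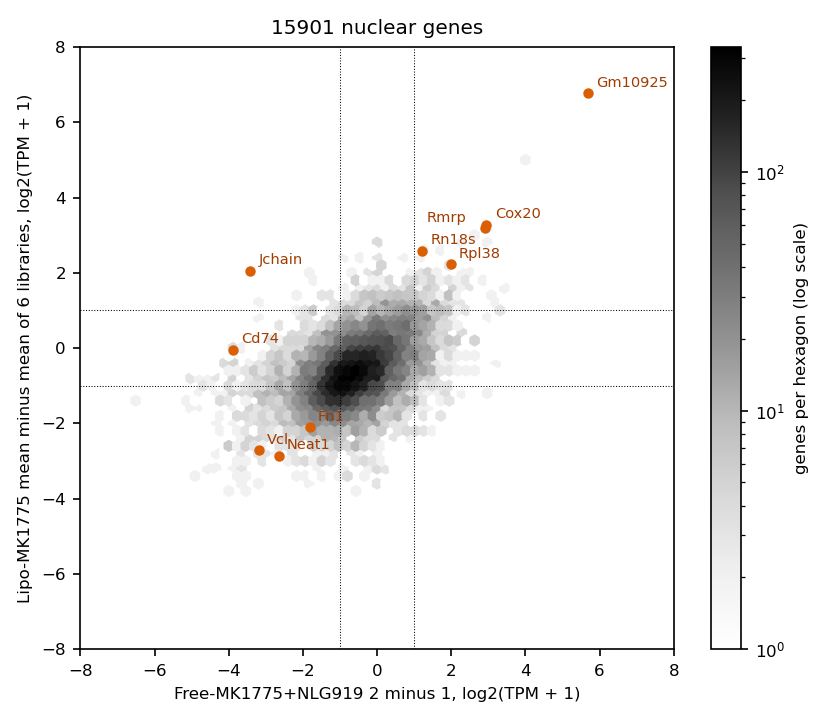
Each of 15901 nuclear genes by Free-MK1775+NLG919 replicate 2 minus replicate 1 (x axis) and by the Lipo-MK1775 mean minus the mean of 6 low share libraries (y axis), both in log2(TPM + 1); shading gives the number of genes, dotted lines mark 1 and -1, and 10 genes are labelled. Gm10925, Cox20, Rmrp and Rpl38 lie at upper right and Neat1 and Vcl at lower left, while Cd74 and Jchain lie left without a fall on the y axis.

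Among the 7 low share libraries the mitochondrial share ranged only from 2.88% to 4.82%, and its order there was not used to choose the libraries. Against the short minus long difference, Pearson's r was -0.17 (two-sided exact permutation p = 0.698, adjusted over the 3 relations 0.698) and Spearman's rho -0.07 (exact permutation p = 0.906, adjusted 0.963). Against log2 Rn18s r was 0.21 (exact permutation p = 0.636, adjusted 0.698) and rho -0.04 (p = 0.963, adjusted 0.963). Against the number of genes at 1 TPM or more r was 0.27 (exact permutation p = 0.557, adjusted 0.698) and rho -0.04 (p = 0.963, adjusted 0.963). None of the 3 passed. Without the 2 libraries farthest from the median share, Free-MK1775 replicate 1 and negative control replicate 1, r was -0.50, -0.28 and 0.46 over 5 libraries (exact permutation p = 0.417, 0.575 and 0.458). Without Free-MK1775 replicate 1 alone, the last relation reached r = 0.86 (exact permutation p = 0.0347, n = 6), so its value rests on that library.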

How the data were processed

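RNA was sequenced in 10 libraries of subcutaneous 4T1 tumours, 5 groups of 2, grouped by their treatment labels. Per the submitters' processing notes, FastQC, Trim Galore, HISAT2 and StringTie were used with build GRCm39; versions, the strand setting and poly(A) selection are in none of the sources used. The authors deposited transcript FPKM whose total includes the mitochondrial transcripts, so a high mitochondrial share lowers every other FPKM. Without strand, reads of overlapping or antisense genes cannot be told apart.

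The table holds 161762 transcripts, of which 46 are mitochondrial and 21042 nuclear ones carry no symbol. FPKM were summed per symbol, mitochondrial rows were dropped and each library was rescaled. As an alternative, 14859 assembled transcripts were added to the symbol with the same locus and strand, which left out 6183. The main transcript of a gene is the one with the highest mean FPKM, both sides weighted equally. Gene types and sequences came from GENCODE M21, matched by transcript ID with 15795 of 15901 genes found; its build is GRCm38 and none of its coordinates were used. Sequences were compared with BLAST 2.17.0. Python 3.11.15, numpy 2.4.6, pandas 2.3.3 and scipy 1.17.1 were used, and the scripts were tested on simulated data.

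The libraries were split by a measured value, so high against low share has no test. Only the 3 relations within the 7 low share libraries were tested, by two-sided exact permutation with Benjamini-Hochberg adjustment. The members, gene lists and rules were chosen with earlier results of these data known. Named genes are the 12 with the largest and the 12 with the smallest difference among those called, with the Free-MK1775+NLG919 pair of the same sign, at least 5 TPM on either side and a main transcript of at least 200 bases, leaving out predicted genes and pseudogenes. The rule also takes the members with the highest level and the largest differences of each of 31 lists, and a set of fixed genes, of which Ppargc1a did not pass the filter on low values. Some genes that the rule names or the lists hold are not reported here by name. List members beyond it were named to show the range of a list after their values were seen, as were the interferon-responsive genes.

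Alternatives were other scalings, pseudocounts of 0.1 and 5, filters of 5 TPM or none, assembled transcripts added, each library left out and the replicate number as a block. A common sum without mitochondrial copies, Rn18s and transcripts under 200 bases, and the naming rule repeated with assembled transcripts, were added after the data had been seen.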

Additional observations from a re-analysis of the deposited data

Results flagged for a closer look

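Nuclear transcripts without a gene symbol, which no comparison above used in its main form, held 16.7% of nuclear FPKM in Free-MK1775+NLG919 replicate 2, 19.6% in Lipo-MK1775 replicate 1 and 18.4% in Lipo-MK1775 replicate 2. All 3 lay above both negative control libraries (14.2% and 13.3%), while the other 5 treated libraries were at 12% to 12.5%. With assembled transcripts counted to symbols by locus, 10.8%, 13.8% and 12.2% of nuclear FPKM was still left out, against 2.50% to 3.53% in the 7 low share libraries. The 10 left-out transcripts with most FPKM, chosen after their values were seen, were 220.0 to 720.0 bases long, and 9 of 10 had a single exon and no strand. They held 5.34%, 9.07% and 6.96% of nuclear FPKM in the 3 high share libraries and 0.536% to 1.54% in the others. Their sequences were not used here.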

How the results depend on the processing

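Most of the counts over all genes moved with the scaling and the scale of the logarithm. Median-of-ratios scaling gave 980 genes higher and 652 lower, and 2054 upward and 1743 downward in the Free-MK1775+NLG919 pair, and FPKM as deposited gave 69 higher and 253 upward in the pair. A pseudocount of 5 gave 150 higher, 1846 lower, 348 upward and 2442 downward in the pair and a short minus long difference of 0.68. With 5 TPM as the filter that difference was 1.24 and 523 genes were upward in the pair, and with no filter it was 0.74 and 9 of 31 lists, in place of 18, stood above the median of all genes. Leaving out each library in turn gave 292 to 418 genes higher, 3507 to 4121 lower, a short minus long difference of 0.86 to 1.03 and 14 to 18 lists above the median. The short minus long difference stayed above 0 in every setting tried. Within the low share libraries, leaving out each gave r of -0.42 to 0.86 for genes at 1 TPM or more, -0.78 to 0.37 for short minus long and 0.04 to 0.59 for Rn18s; the value of 0.86 was reached without Free-MK1775 replicate 1. Adding assembled transcripts turned the direction of Car5b (-0.50) and Erc1 (-1.11), and gave 301 genes higher and 3904 lower, of which 250 and 2945 were called in both. The cause of these moves was not tested.

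With the replicate number as a block, 308 genes were higher and 3772 lower, the short minus long difference was 0.95 and 16 lists stood above the median. The labels do not say that a number pairs libraries, and the correlation over genes of replicate 2 minus replicate 1 between groups was -0.19 to 0.07 over 10 pairs of groups. Depth limits low genes in the high share libraries in particular, since they hold the fewest nuclear reads, and FPKM gives no interval for them.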
